A study of Mus musculus with 10 samples.

Results

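AP-1 and immediate-early transcription factors were followed here through 10 genes, chosen by name and found by symbol among the rows of the count table: Fos, Fosb, Fosl1, Fosl2, Jun, Junb, Jund, Egr1, Atf3 and Ier2. These are 10 of the 52636 genes in the table, and all 10 passed the filter on low counts. Polyadenylated RNA had been sequenced from 10 mouse tumours labelled as melanoma. The 6 tumours of the first group carry the genotype BrafCA;Cdkn2af/f; Arf6Q67L and the 4 controls carry BrafCA;Cdkn2af/f. Both groups therefore share BrafCA, an oncogenic Braf allele that Cre switches on, and floxed Cdkn2a, a tumour suppressor locus. What separates the groups is Arf6Q67L, the small GTPase ARF6 held in its active state. The promoter that drives Cre, the age and sex of the mice, and any batch are not stated in the labels. Each tumour has its own number in its title, but nothing says whether it marks a separate animal, so p-values measure the spread between these tumours only.

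AP-1 is a dimer of basic leucine zipper proteins. JUN proteins pair with each other or with FOS proteins, and FOS proteins bind DNA only with a partner. Fos, Fosb, Jun, Junb, Egr1, Atf3 and Ier2 belong to the genes that cells switch on within minutes of a growth factor, stress or wound signal, without new protein synthesis, and their mRNAs are short-lived. Fosl1 and Fosl2 encode FRA-1 and FRA-2, which are made later and, in cells with sustained ERK signalling such as BRAF-driven melanoma, can persist. FRA-1 lacks the transactivation domains that c-FOS carries. Jund is often transcribed at a steady level. The comparison set the 8 other genes, called early genes here for short although Jund is not induced in this way, beside Fosl1 and Fosl2.

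Levels are given as CPM, the share of a library's counts on a parts-per-million scale, with library sizes adjusted by trimmed-mean (TMM) factors. The 6 Arf6Q67L libraries held 31372896 to 37918116 counts and the 4 control libraries 28635414 to 40869091. The limit that a count of 0 allows, 3 counts, was 0.0761 to 0.106 CPM, which covers counting error only. Values after ± are SD over the tumours of a group throughout. Arf6 itself averaged 104 ± 21.3 CPM (n = 6) in Arf6Q67L tumours and 93.0 ± 17.4 CPM (n = 4) in controls, so its level does not tell the genotypes apart. Of the melanocyte markers, Tyr and Dct had 0 counts in every tumour, Mitf lay between 11.1 and 26.1 CPM, and Sox10 reached 2.83 CPM in Arf6Q67L tumour 6 and 1.27 CPM in control 3 and was at most 0.251 CPM elsewhere. Tyr and Dct, which define pigment-making cells, were thus not detected in tumours labelled as melanoma. Of all 7 melanocyte markers listed, 5 did not pass the filter on low counts, and only 1, Mitf, reached 5 CPM in any tumour.

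The promoters of Fos and Atf3, the members with the largest log2 fold changes between the genotypes, are printed beside that of Jun, whose log2 fold change was near 0. Each line gives the 250 bases before the RefSeq start (GRCm38.p6, 5′ to 3′ on the gene's strand). Capitals mark matches to the motifs searched on both strands: the AP-1 site TGANTCA, the cyclic AMP response element TGACGTCA, its core TGACGT (contained in the full element), the Jun-type AP-1 variant TGACATCA, the CArG box bound by serum response factor, and TATAAA.
Fos: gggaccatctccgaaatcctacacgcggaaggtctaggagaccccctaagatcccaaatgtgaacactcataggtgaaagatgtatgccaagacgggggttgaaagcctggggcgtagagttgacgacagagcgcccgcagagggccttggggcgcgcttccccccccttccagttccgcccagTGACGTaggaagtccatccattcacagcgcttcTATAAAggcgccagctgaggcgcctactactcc
Atf3: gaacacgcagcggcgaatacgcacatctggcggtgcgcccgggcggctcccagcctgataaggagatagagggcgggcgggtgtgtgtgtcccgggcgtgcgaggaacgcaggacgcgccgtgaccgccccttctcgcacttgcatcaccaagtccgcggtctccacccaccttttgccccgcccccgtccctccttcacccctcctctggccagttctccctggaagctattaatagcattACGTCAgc
Jun: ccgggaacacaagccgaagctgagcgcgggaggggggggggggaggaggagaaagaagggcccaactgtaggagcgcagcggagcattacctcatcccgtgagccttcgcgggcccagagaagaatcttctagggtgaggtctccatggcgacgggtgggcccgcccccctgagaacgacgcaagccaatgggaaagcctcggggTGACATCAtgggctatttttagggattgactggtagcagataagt
The Fos window is chr12:85473640-85473889 (plus strand), the Atf3 window chr1:191183334-191183583 (minus strand) and the Jun window chr4:95052223-95052472 (minus strand). Fos holds the core TGACGT from 66 to 61 bases before the start and TATAAA from 33 to 28 bases before it. Atf3 holds the core on the opposite strand, read as ACGTCA, from 8 to 3 bases before the start. Of the Atf3 window, 7 of 250 bases lie in a GENCODE exon. Which bases these are was not recorded, so the match may lie partly in that exon. Jun holds TGACATCA from 45 to 38 bases before the start. Over 32851 windows of this length in the RefSeq table, 6.47% held the core, 12.4% TATAAA, 2.93% TGACATCA, 6.75% TGANTCA, 1.55% TGACGTCA and 1.47% a CArG box. The RefSeq start of Atf3 lies inside the span of the gene in the GENCODE annotation, whose outermost start is farther upstream. Windows were found for 7 of the 10 genes, and those of Fosb, Fosl2, Junb and Jund held none of these letters. Of these, the Fosl2 window lies wholly (250 of 250 bases) in a GENCODE exon, and the Jund window lies apart from the GENCODE start of the gene, upstream of it, so neither adjoins the gene start printed below. Windows of Fosl1, Egr1 and Ier2 were not used here. Sites beyond these 250 bases, CArG boxes among them, were not searched, so a gene without a match here may hold 1 farther away. Such matches describe the sequence and do not show binding.

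Among the FOS genes, Fos had the largest log2 fold change, towards lower levels in the Arf6Q67L tumours, while those of Fosb, Fosl1 and Fosl2 were near or under their standard errors. Fos (ENSMUSG00000021250, chromosome 12, 85473890 to 85477273, GRCm38), the founding partner of JUN in AP-1, was measured at 3.86 to 18.3 CPM with a median of 9.26 CPM in the Arf6Q67L tumours. In controls 1 to 4 Fos stood at 21.6, 15.4, 21.7 and 58.0 CPM. Arf6Q67L tumour 2, at 18.3 CPM, was the only Arf6Q67L tumour above the lowest control, so 5 of 6 lay below every control and the groups overlapped by that 1 tumour. The means were 10.3 ± 5.33 CPM (n = 6) and 29.2 ± 19.4 CPM (n = 4). The log2 fold change was -1.50 (SE 0.47), or 2.83 times as much Fos in controls. The edgeR adjusted p was 0.309, so Fos did not pass the threshold of 0.05. In bulk tumours, fewer cells of a type and less RNA per cell cannot be told apart.

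Fosb (ENSMUSG00000003545, chromosome 7, 19302696 to 19310051), a close relative of Fos, lay between 4.40 and 17.96 CPM with a median of 8.97 CPM in the Arf6Q67L tumours and at 13.4, 10.3, 7.86 and 23.4 CPM in controls 1 to 4. The groups overlapped widely, since only Arf6Q67L tumour 6 was below the lowest control. The log2 fold change of Fosb was -0.44 (SE 0.39; edgeR adjusted p = 0.711).

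Fosl1 (ENSMUSG00000024912, chromosome 19, 5447547 to 5455946), which encodes FRA-1, lay between 56.7 and 103 CPM with a median of 88.2 CPM in the Arf6Q67L tumours. Controls 1 to 4 stood at 132, 58.8, 75.3 and 87.8 CPM, so Fosl1 was highest in control 1 and low in control 2, where the Arf6Q67L values enclosed all controls but control 1. The means were 83.5 ± 18.6 CPM (n = 6) and 88.5 ± 31.4 CPM (n = 4), with a log2 fold change of -0.084 (SE 0.24; edgeR adjusted p = 0.924). Its sign turned to 0.18 without control 1 and to 0.013 without Arf6Q67L tumour 6, and to 0.058 in limma-voom.

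Fosl2 (ENSMUSG00000029135, chromosome 5, 32135801 to 32157842), which encodes FRA-2, lay between 106 and 182 CPM with a median of 134 CPM in the Arf6Q67L tumours. Fosl2 stood at 202, 115, 136 and 180 CPM in controls 1 to 4, again highest in control 1 and lowest of the controls in control 2. The log2 fold change was -0.20 (SE 0.18; edgeR adjusted p = 0.711). As for Fosl1, 5 of 6 Arf6Q67L tumours lay within the range of the controls, and tumour 6 lay below it.

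**Figure D1:**
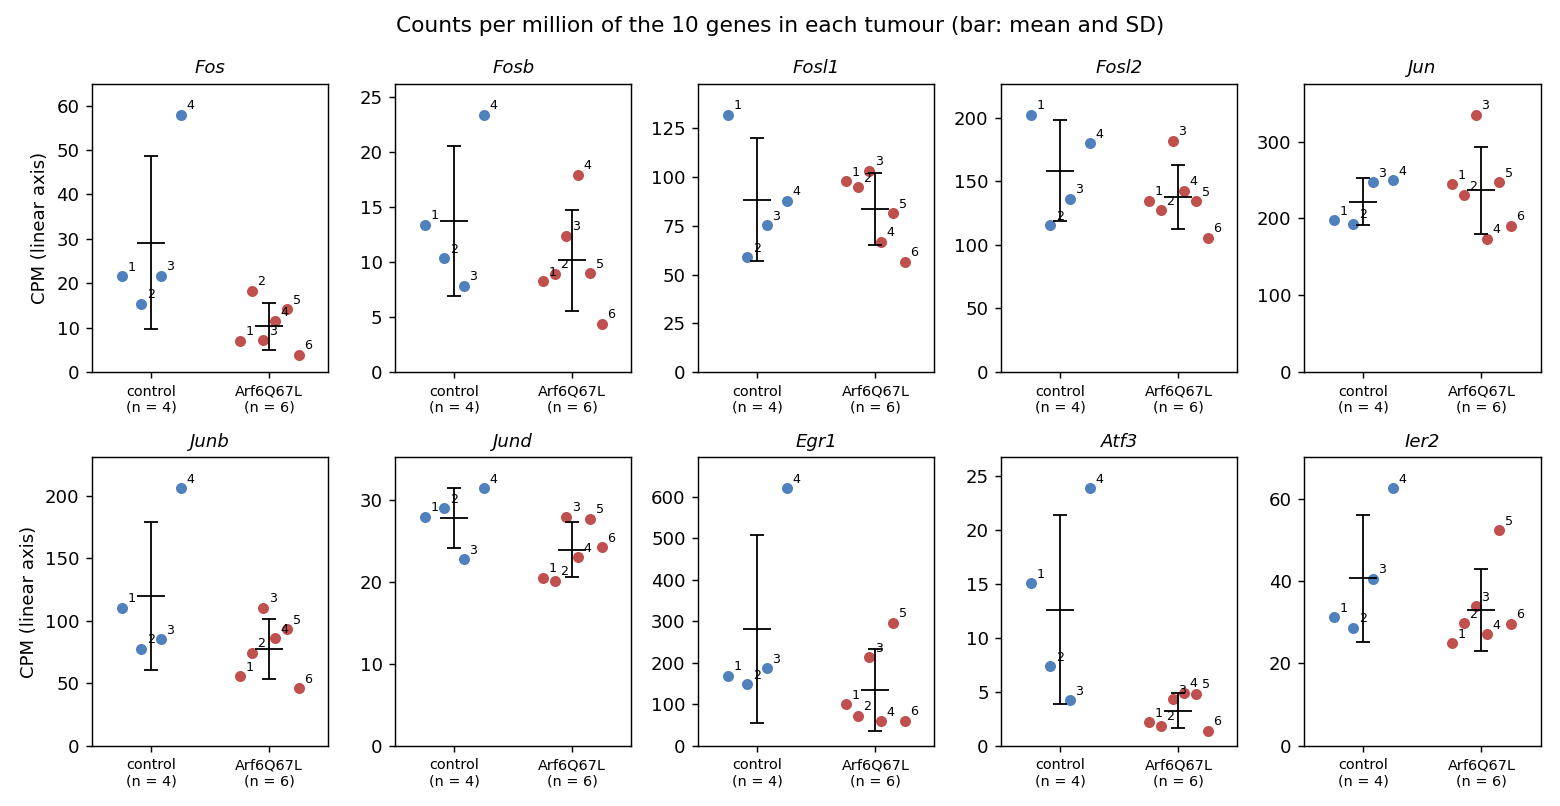
CPM (linear axes from 0) of the 10 genes in 4 control and 6 Arf6Q67L tumours, with tumour numbers beside the points and mean and SD as bars. Control 4 holds the highest value of 7 genes, among them Fos at 58.0 CPM and Egr1 at 621 CPM, while Fosl1 and Fosl2 are highest in control 1.

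The JUN genes differed from one another. Jun (ENSMUSG00000052684, chromosome 4, 95049034 to 95052222), the main partner of FOS proteins, lay between 174 and 335 CPM with a median of 237 CPM in the Arf6Q67L tumours and at 197, 193, 247 and 249 CPM in controls 1 to 4. Jun was highest in Arf6Q67L tumour 3 and lowest in Arf6Q67L tumour 4, so the Arf6Q67L tumours lay on both sides of the controls. Its log2 fold change was 0.095 (SE 0.18; edgeR adjusted p = 0.871), and turned to -0.018 without Arf6Q67L tumour 3.

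Junb (ENSMUSG00000052837, chromosome 8, 84974484 to 84978718), a weaker activator that can oppose JUN, lay between 45.9 and 111 CPM with a median of 80.5 CPM in the Arf6Q67L tumours. Controls 1 to 4 stood at 111, 77.8, 85.5 and 206 CPM, with control 4 far above the others. The log2 fold change of Junb was -0.63 (SE 0.32; edgeR adjusted p = 0.474). Jund (ENSMUSG00000071076, chromosome 8, 70698949 to 70700616), often linked to resting cells, had the narrowest spread of the 10 genes, with a range of 20.2 to 28.0 CPM and a median of 23.6 CPM in the Arf6Q67L tumours. It stood at 28.0, 29.0, 22.8 and 31.4 CPM in controls 1 to 4, and its log2 fold change was -0.22 (SE 0.13; edgeR adjusted p = 0.564). For both Junb and Jund the ranges of the groups overlapped.

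Of the 3 remaining early genes, Atf3 and Egr1 had lower means in the Arf6Q67L tumours and the difference for Ier2 was near its standard error. Atf3 (ENSMUSG00000026628, chromosome 1, 191170296 to 191218039), a stress-induced zipper protein that pairs with JUN proteins and often represses, lay between 1.401 and 4.92 CPM with a median of 3.24 CPM in the Arf6Q67L tumours. Atf3 stood at 15.1, 7.39, 4.23 and 23.9 CPM in controls 1 to 4. Control 3 was the only control within the Arf6Q67L range, where tumours 3, 4 and 5 lay just above it. The means were 3.25 ± 1.61 CPM (n = 6) and 12.6 ± 8.77 CPM (n = 4), and the log2 fold change was -1.96 (SE 0.52), the largest of the 10, which corresponds to 3.89 times as much Atf3 in controls. The edgeR adjusted p was 0.267. In DESeq2 the adjusted p was 0.0158 and in the classic exact test of edgeR 0.0344, so Atf3 passed in both, and in limma-voom it was 0.268. The DESeq2 call was lost without Arf6Q67L tumour 1 (adjusted p = 0.0539), without control 1 (0.0539) and without control 4 (0.156).

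Egr1 (ENSMUSG00000038418, chromosome 18, 34859823 to 34864984), a zinc finger factor that serum response factor and ERK signalling induce, spread most within the groups, at an SD of 0.98 on the log2 CPM scale. It lay between 59.5 and 297 CPM with a median of 86.2 CPM in the Arf6Q67L tumours and at 169, 149, 187 and 621 CPM in controls 1 to 4. Arf6Q67L tumours 3 and 5, at 213 and 297 CPM, stood above controls 1 to 3, while the other 4 lay below every control. The log2 fold change of Egr1 was -1.07 (SE 0.58; edgeR adjusted p = 0.507), and -0.33 without control 4. Ier2 (ENSMUSG00000053560, chromosome 8, 84661331 to 84662852), a small early-response nuclear protein, lay between 24.9 and 52.3 CPM with a median of 29.8 CPM in the Arf6Q67L tumours. It stood at 31.2, 28.6, 40.6 and 62.6 CPM in controls 1 to 4. Its log2 fold change was -0.31 (SE 0.26; edgeR adjusted p = 0.697), and -0.016 without control 4.

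Counted over the 10 genes, 0 passed in edgeR in either direction, as did 0 of the 17286 genes tested (0%). An unadjusted edgeR p under 0.05 with a lower level in Arf6Q67L tumours was found for 2 of the 10, Fos and Atf3, against 7.05% of all genes, and a higher level for 0 against 4.65%. In DESeq2 1 of the 10, Atf3, passed as lower, against 1.42% of all genes, and 0 as higher, against 0.966% (2.39% in either direction). The groups did not overlap for 0 of the 10, against 2.44% of all genes (1.28% lower and 1.15% higher). Fold changes were negative for 9 of the 10, against 50.3% of all genes, and the median of the 10 was -0.37 on the log2 scale against -0.0018 for all genes. The 10 genes were chosen with earlier results of these data known, so these shares describe them and are no test.

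**Figure D2:**
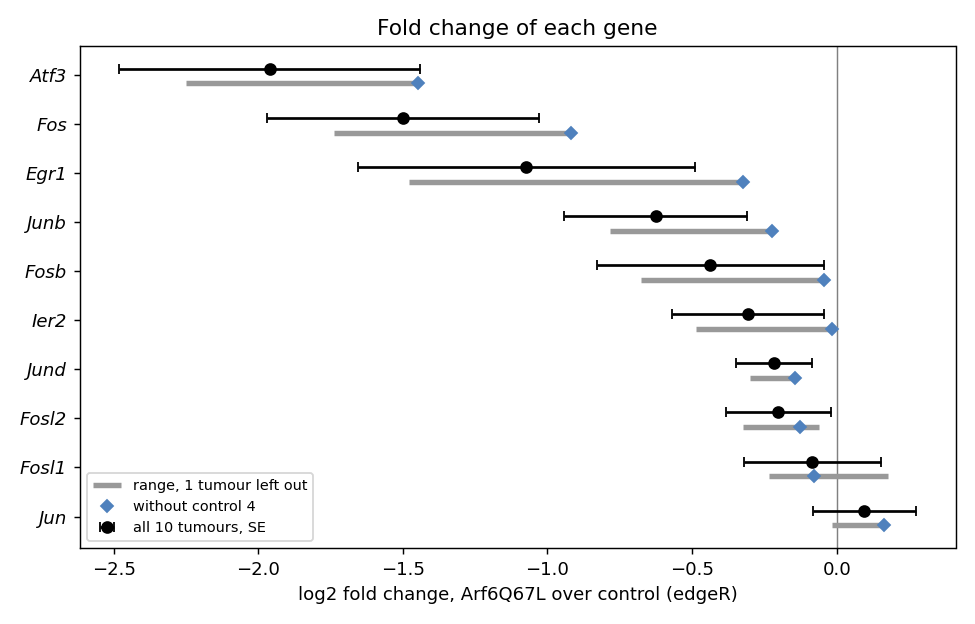
Log2 fold changes (Arf6Q67L over control, edgeR) of the 10 genes from all 10 tumours with SE, the range when 1 tumour at a time was left out, and the value without control 4. Atf3 stays between -2.25 and -1.45 and Fos between -1.74 and -0.92, while the ranges of Fosl1 and Jun reach both sides of 0.

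Control 4 weighed on most of these values. It held the highest level of 7 of the 8 early genes, all but Jun, whereas over all genes tested 18.8% were highest there. Without control 4 the log2 fold change of Fos was -0.92 (edgeR adjusted p = 0.561), that of Atf3 -1.45 (0.463), that of Junb -0.22 (0.833) and that of Fosb -0.044 (0.981). The median over the 8 early genes was -0.53 with control 4 and -0.18 without it. At the other end, Arf6Q67L tumour 6 held the lowest level of 6 of the 10 genes (Fos, Fosb, Fosl1, Fosl2, Junb and Atf3), against 12.4% of all genes. Without it the log2 fold change of Fos was -1.32 and that of Atf3 -1.80.

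**Figure D3:**
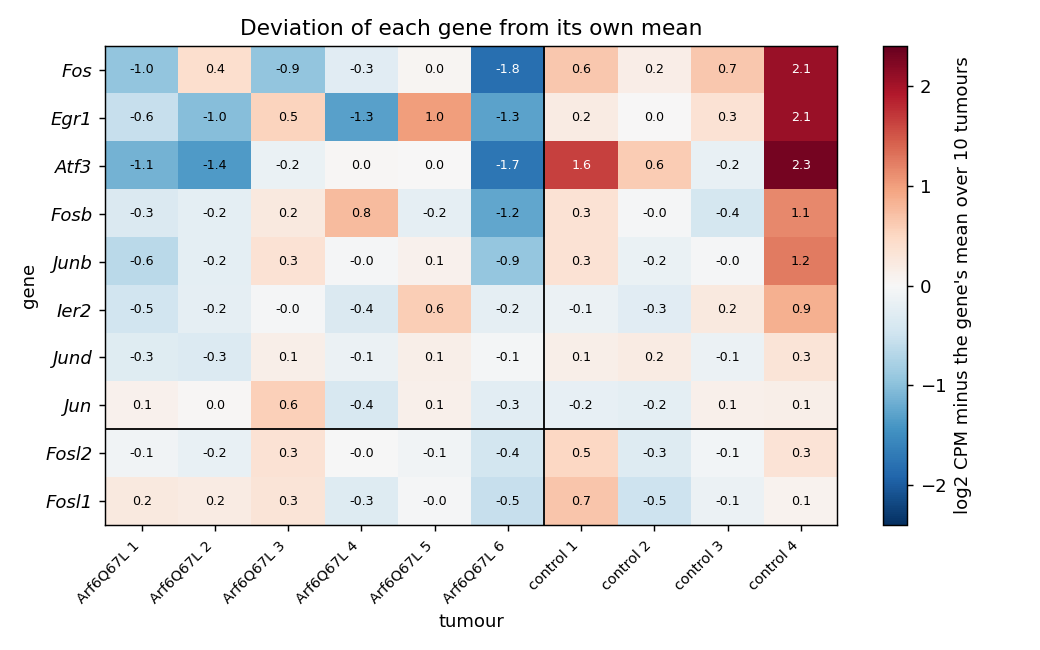
Log2 CPM of each gene (rows) in each tumour (columns) minus that gene's mean over the 10 tumours. The column of control 4 is positive in all 10 genes and that of Arf6Q67L tumour 6 negative in all 10, and Fosl1 and Fosl2 in the bottom rows peak in control 1.

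The early genes were then set against Fosl1 and Fosl2 within each tumour, as deviations of log2 CPM from each gene's own mean over the 10 tumours. This compares how genes move and not how much of each is present. The mean deviation of the 8 early genes was -0.29 ± 0.43 (n = 6) in the Arf6Q67L tumours and 0.44 ± 0.57 (n = 4) in controls, a difference of -0.73. For Fosl1 and Fosl2 together it was -0.048 ± 0.27 (n = 6) and 0.071 ± 0.42 (n = 4), a difference of -0.12. The genotypes thus differed by -0.61 in the early genes minus Fosl1 and Fosl2, and by -0.38 without control 4.

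By tumour, the early genes minus Fosl1 and Fosl2 came to -0.61, -0.38, -0.25, -0.053, 0.28 and -0.45 in Arf6Q67L tumours 1 to 6 and to -0.22, 0.44, 0.18 and 1.06 in controls 1 to 4. Control 1, with its high Fosl1 and Fosl2, fell among the Arf6Q67L tumours, and Arf6Q67L tumour 5 among the controls, so the groups overlapped. The median log2 fold change of the early genes minus the mean of Fosl1 and Fosl2 was -0.39, and -0.08 without control 4. These values describe the genes chosen and were not tested.

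**Figure D4:**
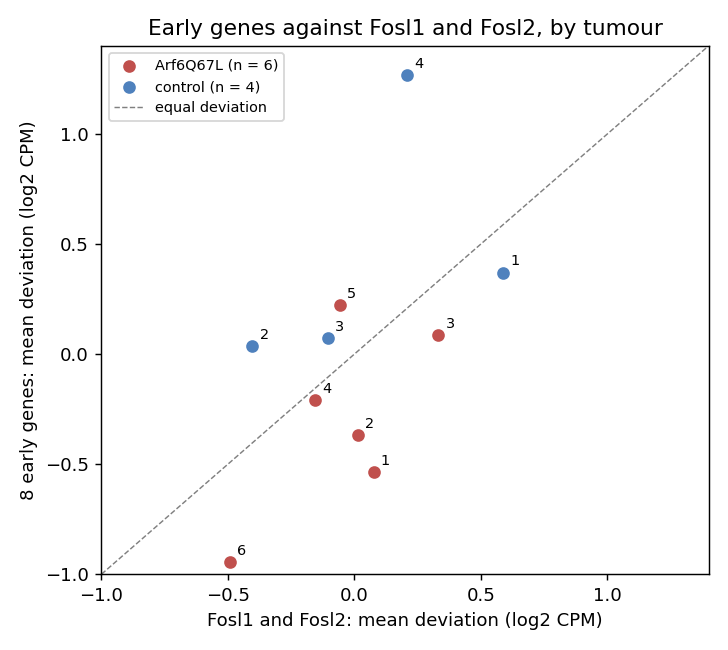
Mean deviation of the 8 early genes (vertical) against that of Fosl1 and Fosl2 (horizontal), both as log2 CPM minus each gene's own mean, with 1 point a tumour and the line of equal deviation. Control 4 stands alone at 1.27 for the early genes, control 1 lies farthest right at 0.59, and Arf6Q67L tumour 6 is lowest on both axes at -0.94 and -0.49.

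Profiles over the 10 tumours were also compared in pairs, by the root mean square difference of these deviations, which grows with each gene's own spread. Of the 45 pairs, Fosl1 and Fosl2 were the nearest, at 0.22 on the log2 scale. Fosb and Junb lay at 0.33, and Jun and Jund at 0.31, whereas Jun and Atf3 were the farthest apart at 1.23. The 28 pairs of early genes had a median of 0.76 and the 16 pairs of an early gene with Fosl1 or Fosl2 a median of 0.52. Within groups Egr1, Atf3 and Fos spread most, at SDs of 0.98, 0.91 and 0.81 on the log2 CPM scale. Fosl1 (0.40) and Fosl2 (0.30) spread less, and Jun (0.29) and Jund (0.20) least. The medians therefore follow these spreads as well, and do not show whether the early genes move together.

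Among 12049 other genes with a mean log2 CPM of at least 1, the 5 with profiles nearest to Fos were Xaf1 (0.28), Herc6 (0.30), Rtp4 (0.34), Oas2 (0.38) and Oasl2 (0.38). Xaf1 stood at 22.4 ± 10.98 CPM (n = 6) against 59.6 ± 21.3 CPM (n = 4), and like Fos it was highest in control 4, at 91.1 CPM, and lowest in Arf6Q67L tumour 6, at 11.5 CPM. Unlike Fos, Xaf1, Herc6 and Oasl2 were lower in every Arf6Q67L tumour than in any control, against 1.28% of all genes. DESeq2 called these 3 lower (adjusted p = 0.0151, 0.00436 and 0.0133), against 1.42% of all genes, and edgeR did not. Rtp4 and Oas2 overlapped and were not called. All 5 were picked for their likeness to Fos over these same tumours, and the fold change of Fos was itself negative. Their direction follows from that choice, so the shares over all genes are no fair measure for them. The 5 genes nearest to Fosl1 were Ggta1 (0.13), Kdm3a (0.16), Ier5 (0.17), Zfp281 (0.18) and Mafk (0.18). Ggta1, a galactosyltransferase gene, stood at 176 ± 47.3 CPM (n = 6) against 171 ± 40.5 CPM (n = 4).

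Levels of different genes were compared per length, as CPM per kilobase of the union of annotated exons. On that scale Jun was the most abundant in both groups, at 74.3 ± 17.7 (n = 6) in Arf6Q67L tumours and 69.5 ± 9.59 (n = 4) in controls. In Arf6Q67L tumours the level per kilobase then went from Fosl1 (41.1 ± 9.13) over Junb (33.8 ± 10.5), Egr1 (29.8 ± 22.0), Ier2 (21.7 ± 6.55), Jund (14.4 ± 2.03), Fosl2 (14.2 ± 2.59) and Fos (4.39 ± 2.27) to Fosb (1.63 ± 0.73) and Atf3 (1.51 ± 0.75), each as SD with n = 6. Neighbours in this order overlapped in range except Jun with Fosl1 and Fosl2 with Fos. In controls the order was Jun, Egr1 (62.8 ± 50.6), Junb (52.2 ± 25.7), Fosl1 (43.5 ± 15.4), Ier2 (26.8 ± 10.1), Jund (16.7 ± 2.18), Fosl2 (16.4 ± 4.11), Fos (12.4 ± 8.27), Atf3 (5.87 ± 4.07) and Fosb (2.20 ± 1.09), each as SD with n = 4, and every pair of neighbours overlapped.

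The place of Fosl1 and Jund in this order depends on the length used. In the annotation 57.2% of the exon bases of Fosl1 lie under Ccdc85b on the opposite strand, and 52.6% of those of Jund under Gm11175. For Jun and Junb the share was 7.3% and 7.5%, and for the other 6 genes 0%. Of 440 genes whose exons lie wholly under opposite-strand exons of another gene, 430 (97.7%) had 0 counts in every library, against 41.2% of the 40973 genes that share no exon base. Of 7812 genes partly under opposite-strand exons, the class of Fosl1 and Jund, 775 (9.9%) were at 0. Gm11175 had 0 counts in every library, and Ccdc85b did not. How reads in bases shared by both strands were counted is not given in the sources used here. If they were left out, the level per full exon length is too low for Fosl1 and Jund, and this was not tested. Over the exon bases that no other gene covers, Fosl1 stood at 96.0 ± 21.3 CPM per kilobase (n = 6) in Arf6Q67L tumours and 102 ± 36.1 (n = 4) in controls, above Jun at 80.1 ± 19.1 and 75.0 ± 10.3, with overlapping ranges. Jund came to 30.3 ± 4.28 and 35.1 ± 4.60 on the same scale. Fold changes between the genotypes are not altered by the length.

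Other genes of the same response were read from lists. Of 36 further immediate-early genes, 35 were tested and 1 (Egr4) was below the filter. In edgeR 0 of the 35 passed, with an unadjusted p under 0.05 for 6 lower and 0 higher, against 7.05% and 4.65% of all genes, and in DESeq2 0 passed. The fold change was negative for 31 of 35 (88.6%), against 50.3% of all genes, with a median of -0.27 (-0.17 without control 4) against -0.0018. The same shares of all genes apply to the lists that follow. These lists too were chosen with earlier results of these data known, so the shares are no test of them. The 4 of lowest p were Nfkbiz, an atypical inhibitor of NF-kappaB (-0.70, SE 0.20), Klf2 (-1.05, SE 0.37), Csrnp1 (-0.66, SE 0.24) and Klf4 (-0.46, SE 0.17), with edgeR adjusted p-values from 0.283 to 0.366. Of these 35 genes, 15 were highest in control 4 and 11 in control 1, where over all genes 18.8% and 7.95% were, and 19 were lowest in Arf6Q67L tumour 6, against 12.4%.

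Of 13 other basic leucine zipper genes, 12 (92.3%) had a negative fold change, at a median of -0.14, and 0 passed in edgeR (2 lower and 0 higher at an unadjusted p under 0.05). Batf2, of the BATF group that pairs with JUN proteins in immune cells, stood at 5.31 ± 5.67 CPM (n = 6) against 26.8 ± 15.4 CPM (n = 4), and its adjusted p was 0.0287 by DESeq2 but 0.286 by edgeR. It was the 1 gene of the 13 that DESeq2 called, against 1.42% of all genes as lower. Batf (-1.38, SE 0.51), Batf3 (-1.31, SE 0.68) and Atf4 (-0.33, SE 0.17) followed.

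Among factors and kinases upstream of the early genes, 1 kinase gene was called by DESeq2 and 0 genes by edgeR. Srf, which binds the CArG box of early genes, stood at 45.8 ± 5.61 CPM (n = 6) against 43.3 ± 7.48 CPM (n = 4; edgeR adjusted p = 0.850). Over Srf and 5 of its cofactors 3 fold changes were negative and 3 positive, the median was 0.0035, and 0 passed in edgeR, at any unadjusted p under 0.05, or in DESeq2. Elk4 (-0.40, SE 0.20), Elk1 (0.16, SE 0.12) and Mrtfb (-0.050, SE 0.098) had the lowest p-values beside Srf. Of 12 genes of the JNK, p38 and RSK kinase groups, which phosphorylate JUN, ATF and FOS proteins or their regulators, 8 (66.7%) were negative at a median of -0.067 and 0 passed in edgeR, with 1 lower and 0 higher at an unadjusted p under 0.05. That gene, Rps6ka4, which encodes the kinase MSK2, stood below every control in 6 of 6 Arf6Q67L tumours, at 99.0 ± 9.82 CPM (n = 6) against 126 ± 10.3 CPM (n = 4). By DESeq2 its adjusted p was 0.0471, and by edgeR 0.283. Over all genes 1.42% were called lower by DESeq2, and 1.28% were lower without overlap of the groups. Mapk9 (-0.24, SE 0.19), Rps6ka5 (-0.21, SE 0.21) and Map2k4 (0.083, SE 0.082) did not pass in either.

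**Figure D5:**
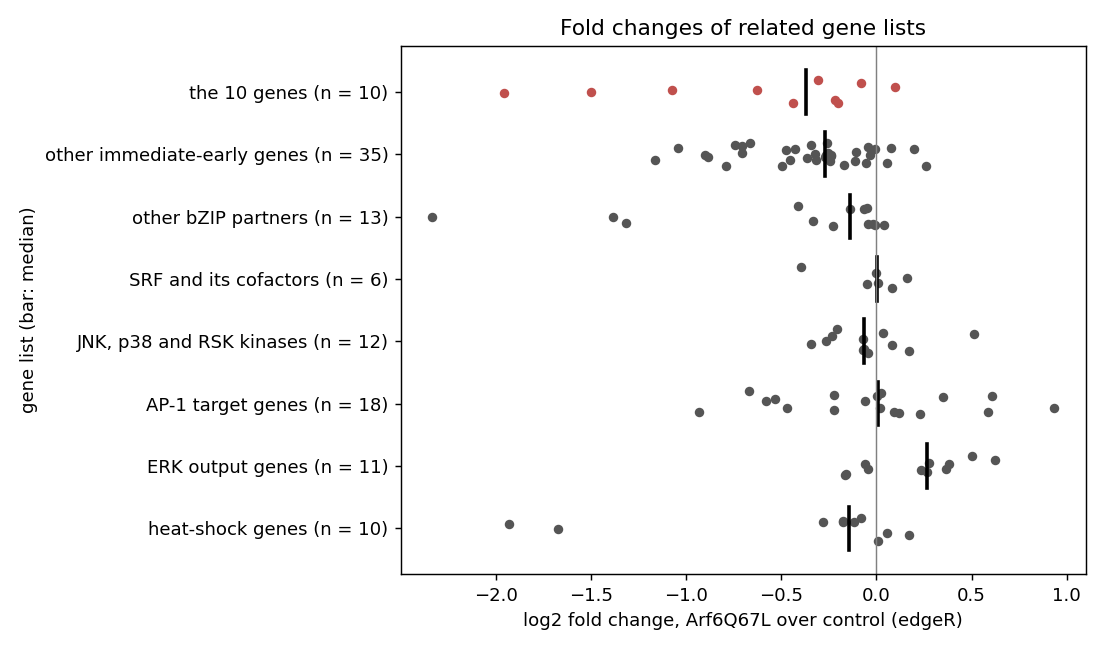
Log2 fold changes (Arf6Q67L over control, edgeR; 1 point a gene, vertical bar the median) of the 10 genes and of 7 related lists. The medians run from -0.37 for the 10 genes to 0.26 for ERK output genes, and each list has members near 0.

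Targets of AP-1 had no common direction. Of 18 such genes, which include proteases and growth factors, 8 (44.4%) were negative and 10 positive, with a median of 0.0082 (-0.084 without control 4). In edgeR 0 passed, 0 had an unadjusted p under 0.05, and in DESeq2 0 passed. Timp1, an inhibitor of matrix proteases, stood at 478 ± 158 CPM (n = 6) against 761 ± 282 CPM (n = 4), and the protease gene Plau at 1188 ± 972 CPM (n = 6) against 621 ± 223 CPM (n = 4), with Arf6Q67L tumour 1 highest. Hmga1 (0.61, SE 0.35) and Lif (-0.93, SE 0.70) were next.

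Genes that report ERK signalling, the pathway that BRAF drives, were positive in 7 of 11 at a median of 0.26, and 0 passed in edgeR, at an unadjusted p under 0.05, or in DESeq2. Those of lowest p were the feedback inhibitors Spred1 (0.26, SE 0.14), Spry2 (0.36, SE 0.20) and Spry4 (0.28, SE 0.18) and the ETS factor Etv1 (0.38, SE 0.21), with edgeR adjusted p-values from 0.503 to 0.572. Heat-shock genes, which stress and handling can raise along with early genes, were negative in 7 of 10 (70%) at a median of -0.15, with 0 past the threshold in edgeR and in DESeq2 and 1 lower at an unadjusted p under 0.05. Hspa1a (-1.93, SE 0.84) and its near-identical copy Hspa1b (-1.67, SE 0.77), between which reads cannot always be assigned, were highest in control 1, and Hspe1 (-0.17, SE 0.095) and Hspa8 (-0.12, SE 0.11) followed.

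Several markers of other cells were called between the genotypes by DESeq2, and some were high or low in the tumours that set the extremes. Of the marker genes tested, 0 passed in edgeR. The 7 T cell markers were all negative, with a median of -2.11 (-1.40 without control 4), 4 lower at an unadjusted p under 0.05 and 0 called by DESeq2. Their summed level ran from 13.4 to 80.0 CPM in Arf6Q67L tumours and from 26.6 to 288 CPM in controls, with control 4 highest. The 4 mast cell markers were all positive, with a median of 3.15, and DESeq2 called all 4 higher, against 0.966% of all genes. Their sum ran from 29.8 to 508 CPM in Arf6Q67L tumours, highest in tumour 6, and from 6.62 to 45.6 CPM in controls.

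DESeq2 also called lower 2 of 5 endothelial markers, Pecam1 (-0.86, SE 0.22) and Emcn (-1.20, SE 0.30), the neutrophil marker Csf3r (-1.35, SE 0.32) and the smooth muscle marker Acta2 (-1.55, SE 0.45). Over all genes 1.42% were called lower by DESeq2. The 5 endothelial and the 4 tested neutrophil markers were all negative. Of the 4 pericyte and smooth muscle markers 3 were negative and 1 was positive. Of 6 macrophage markers 5 were negative, at a median of -0.56 (-0.29 without control 4), while Mrc1 was positive (0.60, SE 0.46) and averaged 496 CPM (n = 6) against 326 CPM in controls (n = 4). Mrc1 had the highest mean of these markers in the Arf6Q67L tumours. In Arf6Q67L tumours 5 and 6, however, C1qa (402 and 172 CPM) was above Mrc1 (305 and 116 CPM). The macrophage sum ran from 481 to 1270 CPM in Arf6Q67L tumours and from 747 to 1650 CPM in controls, with control 4 highest. Control 4 was highest as well for the sums of 4 pericyte and smooth muscle markers (34.8 to 163 CPM in Arf6Q67L tumours, 40.5 to 206 CPM in controls), 5 skeletal muscle markers (11.5 to 531 and 1.97 to 946 CPM) and 3 adipocyte markers (5.15 to 72.8 and 14.2 to 167 CPM). In controls 1 to 3 the skeletal muscle sum was 26.6, 2.295 and 1.973 CPM. Arf6Q67L tumours 1 to 6 stood at 11.45, 378.9, 238.1, 430.4, 530.7 and 43.93 CPM. The median log2 fold change of the skeletal muscle markers was 0.19, and 4.99 without control 4. Control 1 was highest for 5 neutrophil markers (9.52 to 90.4 and 40.6 to 233 CPM, with Ly6g at 0.251 CPM or less) and 5 endothelial markers (62.6 to 252 and 114 to 275 CPM). Arf6Q67L tumour 6, lowest for most of the 10 genes, was also lowest for the macrophage, neutrophil and adipocyte sums. The 5 fibroblast markers (1850 to 3480 and 2070 to 3850 CPM) were highest in control 2. The 4 keratinocyte markers lay between 3.78 and 6.24 CPM, with Krt5 and Krt14 at 0 counts in most tumours, and the 7 melanocyte markers between 12.9 and 26.8 CPM. The part of these cells in the levels of the early genes was not tested.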

How the data were processed

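Tumour RNA was purified with a Qiagen RNeasy kit, and poly(A) libraries were prepared with a stranded Illumina TruSeq kit, per the labels' protocols. The authors deposited raw counts per Ensembl gene in 1 table. The submitters' processing notes list STAR 2.5.2b, featureCounts 1.5.1, DESeq2 1.18.0 and GRCm38 but not what each was used for. How strand and overlapping genes were handled in counting is not given in the sources used here. Library identifiers tied columns to samples, and tumour numbers follow accession order. Library numbers follow genotype, so the order of libraries cannot be told apart from it.

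Fits used edgeR 4.0.16 in R 4.3.3 on both groups with no covariate. The filter (filterByExpr, minimum count 10) left 17286 genes. TMM normalization and the robust quasi-likelihood test followed, and p-values were adjusted by Benjamini-Hochberg over these genes at a threshold of 0.05. DESeq2 1.42.0, limma 3.58.1 (voom with quality weights), the classic exact test of edgeR, RLE and upper-quartile factors, no filter, and omission of each tumour were alternatives. The fitting code was checked on simulated data. An SE is the log2 fold change divided by the root of F. Log2 CPM used a prior count of 2. GENCODE M21 (GRCm38) gave symbols for 99.6% of the genes, positions and exon lengths, and RefSeq (GRCm38.p6) gave promoters. The text names the 10 members, Srf, Arf6, markers and overlapping genes, up to 4 genes of lowest p in each list, and the 5 profiles nearest to Fos and to Fosl1, leaving out predicted genes and pseudogenes. Egr4 was named after its values were seen. The members and lists were chosen with earlier results of these data known.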

Additional observations from a re-analysis of the deposited data

Results flagged for a closer look

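In 3 of 26 sets of values (the 10 genes, the mean deviation of the early genes, that of Fosl1 and Fosl2, and their difference, each in 2 groups), 1 tumour stood apart from the rest of its group by Dixon's criterion, which chance alone meets in about 1 group in 20 where values are normally distributed. The 10 genes were taken as linear CPM and the deviations as log2. That rate may therefore not hold for the genes, and some of their flags depend on the scale, as given below. Fos in control 4 was at 58.0 CPM, where the next control was at 21.7 CPM (gap over range 0.853, critical value 0.829). Egr1 in control 4 was at 621 CPM, with the next control at 187 CPM (0.918 against 0.829). Both flags fall on the same tumour. Ier2 in Arf6Q67L tumour 5 was at 52.3 CPM, with the next Arf6Q67L tumour at 33.9 CPM (0.674 against 0.625). As log2 deviations, the highest, next and lowest controls stood at 2.07, 0.66 and 0.17 for Fos and at 2.08, 0.35 and 0.014 for Egr1. For Ier2 the Arf6Q67L tumours stood at 0.60, -0.027 and -0.47. On that scale the gap over range falls under the critical value for Fos and Ier2 and stays above it for Egr1.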

How the results depend on the processing

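In edgeR 0 genes passed as higher and 0 as lower, against 167 and 246 in DESeq2, 40 and 154 in the classic exact test, and 1 and 1 in limma-voom. Leaving out 1 tumour at a time gave 0 to 1 higher genes in edgeR. In DESeq2, where this was added after seeing the data, it gave 183 to 613 called genes in all, against 413 with every tumour. The total was 183 without control 2, 262, 263 and 266 without Arf6Q67L tumours 1, 2 and 6, and 613 without Arf6Q67L tumour 4. The lower calls among them were 99 without control 2, 116 without control 4, 146, 162 and 149 without Arf6Q67L tumours 1, 2 and 6, 396 without Arf6Q67L tumour 4, and 373 when control 1 was omitted. Of the 10 genes, 0 passed as lower in edgeR, also with any 1 tumour left out, and with every tumour kept 1 (Atf3) passed in DESeq2 and 1 (Atf3) in the classic exact test. DESeq2 with 1 tumour omitted gave 0 to 2, with Fos called too only when Arf6Q67L tumour 2 was left out (adjusted p = 0.0254). The signs of Fosl1 and Jun were not stable. Fosl1 was at 0.058 in limma-voom, at 0.016 in DESeq2 without Arf6Q67L tumour 6, and ran from -0.23 to 0.18 in edgeR and from -0.23 to 0.19 in DESeq2 when 1 tumour was omitted. Jun ran from -0.018 to 0.17 in edgeR and from -0.020 to 0.18 in DESeq2. The cause was not tested. The other 8 genes were negative under all alternatives run. The median log2 fold change of the early genes minus the mean of Fosl1 and Fosl2 was -0.39 with every tumour. With 1 tumour omitted it lay between -0.61 (without control 1) and -0.08 (without control 4). The difference in mean deviations given earlier is another measure. Upper-quartile and RLE factors and no filter moved the median of all genes by less than 0.1 and no call. Coding length in place of exon length changed the order of levels, with Fosl2 second in Arf6Q67L tumours at 141 CPM per kilobase. No paired analysis was possible because tumours carry no number that is shared between the groups.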

Other observations

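Junos, an antisense transcript beside Jun that shares 232 exon bases with it, was counted in every tumour, at 218 to 773 counts, with a mean of 14.2 ± 5.55 CPM (n = 6, ± SD) in Arf6Q67L tumours and 11.9 ± 5.38 CPM (n = 4) in controls (edgeR adjusted p = 0.818). It was highest in Arf6Q67L tumour 2 (21.3 CPM), control 4 (19.7 CPM) and Arf6Q67L tumour 1 (19.5 CPM), whereas Jun was highest in Arf6Q67L tumour 3. Ccdc85b, which in the annotation covers 1163 exon bases of Fosl1 from the other strand, averaged 35.6 ± 10.4 CPM (n = 6) and 39.9 ± 7.60 CPM (n = 4). Gm11175, opposite Jund, had 0 counts in every tumour.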
